A study of Mus musculus with 2 samples.

Results

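Of the 2522 barcodes of the Car1-GFP library, 251 (9.95%) were taken as globin-rich erythroid cells, chosen by their globin UMIs. A barcode was included when mitochondrial transcripts made up under 10% of its UMIs and the 4 adult globin genes Hba-a1, Hba-a2, Hbb-bs and Hbb-bt made up 2% or more. These 251 are 10.5% of the 2400 barcodes that passed the mitochondrial limit, and the series holds 8980 barcodes in all. They were set against the 2022 barcodes of the same library with a globin share under 1%, called globin-low, and the 127 barcodes at 1 to 2% were kept apart. Because globin chose the barcodes, the globin genes are given as a description only.

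Red cells arise from marrow progenitors that carry the receptor Kit and the transcription factor Gata2. As they mature they pass to Gata1 and Klf1, fill with hemoglobin, build the spectrin-based membrane skeleton, and divide several times before they lose the nucleus. Hemoglobin needs heme, which is made from glycine in a chain of enzymes that begins in the mitochondrion with Alas2, the erythroid isoform of aminolevulinate synthase. Car1 and Car2 encode cytosolic carbonic anhydrases, which red cells use to handle carbon dioxide.

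For the Car1-GFP library, marrow cells positive for CD45 and for Car1-GFP were sorted from 3 untreated reporter mice and combined. The other library came from CD45+ CD3- Ly6G- marrow cells, likewise combined from 3 untreated C57BL/6 mice without the reporter. Both strains share the C57BL/6 background, and 10000 cells were loaded in each case. Age and sex of the mice, and the construct of the reporter, are not given in the sources used here. With 1 library for each gate there are no replicates, so no test was made, and every interval below covers counting error only. It does not cover differences between mice, sorts or preparations.

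The globin-rich barcodes held between 4700 and 36607 UMIs each, with a median of 15561, and 3734710 UMIs in all outside the globins. The globin-low barcodes had a median of 14971 UMIs and 35795801 outside the globins. Levels below are UMIs per 1000000 non-globin UMIs, written CPM, so that the globins themselves do not shift the other genes. A count of 3 UMIs, used as the floor for a gene at 0, is 0.803 CPM in the globin-rich sum and 0.0838 in the globin-low sum. In the whole series 14 barcode sequences occur in both libraries, and 2 of them belong to the globin-rich group. The doublet caller Scrublet marked 9 of the 2400 barcodes, 1 of them globin-rich, too few for the caller to be relied on, and none was removed.

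Promoter sequences are shown for the beta globin gene Hbb-bs, for a pair of the highest non-globin genes, and for Kit, one of the lower ones. Each is the window of 250 bases before the annotated start in RefSeq on GRCm38.p6, written 5′ to 3′ on the gene's strand. Capitals mark AGATAA or its reverse complement TTATCT, a core of the sites bound by GATA factors, and CCACACCC or its reverse complement GGGTGTGG, a CACCC box of the kind bound by Klf1. These motifs do not overlap each other in any of the windows shown. The Hbb-bs window lies at chr7:103827929-103828178 on the minus strand, the Alas2 window at chrX:150547167-150547416 on the plus strand, the first of 3 Acp5 windows at chr9:22135747-22135996 on the minus strand, and the first of 2 Kit windows at chr5:75574737-75574986 on the plus strand.
Hbb-bs: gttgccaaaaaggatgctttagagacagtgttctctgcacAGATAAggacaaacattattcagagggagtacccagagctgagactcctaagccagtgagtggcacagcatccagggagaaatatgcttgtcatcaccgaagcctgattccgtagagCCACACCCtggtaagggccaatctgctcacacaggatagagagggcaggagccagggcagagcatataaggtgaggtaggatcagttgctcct
Alas2: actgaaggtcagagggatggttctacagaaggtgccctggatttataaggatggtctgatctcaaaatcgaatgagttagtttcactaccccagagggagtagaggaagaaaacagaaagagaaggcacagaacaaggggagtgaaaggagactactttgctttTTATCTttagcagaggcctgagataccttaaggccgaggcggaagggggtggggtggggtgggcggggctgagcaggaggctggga
Acp5: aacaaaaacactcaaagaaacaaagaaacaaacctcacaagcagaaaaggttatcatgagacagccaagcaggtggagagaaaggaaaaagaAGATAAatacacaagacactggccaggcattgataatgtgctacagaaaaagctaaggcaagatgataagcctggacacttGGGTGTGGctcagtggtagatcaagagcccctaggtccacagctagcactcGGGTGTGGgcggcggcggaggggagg
Kit: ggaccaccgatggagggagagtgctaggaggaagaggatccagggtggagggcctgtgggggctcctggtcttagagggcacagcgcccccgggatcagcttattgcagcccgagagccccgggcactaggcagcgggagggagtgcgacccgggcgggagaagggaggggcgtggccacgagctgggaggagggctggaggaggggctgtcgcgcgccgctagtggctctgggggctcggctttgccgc

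The Hbb-bs window holds a GATA core 210 bases before the start and a CACCC box 93 bases before it. In Alas2 the GATA core lies 86 bases before the start. The Acp5 window holds a GATA core at 158 bases and CACCC boxes at 77 and 26 bases before the start, and the Kit window holds neither. The windows of Hba-a1, Hba-a2 and Hbb-bt, the other globin genes of the rule, also held neither motif. The same was true of the other Acp5 windows, so the windows shown are not typical of the globin genes. Of the 15 non-globin genes with the highest ratios under the naming rule, 10 had a promoter window in the table, and 4 of these (Alas2, Acp5, Trim10 and St3gal6) held a GATA core and 1 a CACCC box. Of the 15 lowest, 11 had a window, 0 held a GATA core and 1, Plac8, a CACCC box. Over 27025 genes with a window, 11.4% held a GATA core and 3.68% a CACCC box. These are matches of letters and say nothing of binding. Only the spellings given above were searched, so a window without a match may hold another form of these sites.

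Values near the limit were close. The lowest member had 2.02% globin and the highest barcode left out lay just under the limit of 2%, with 17 barcodes at 2.0 to 2.2% and 14 at 1.8 to 2.0%. The median member had 4.25%. By share, 152 barcodes lay at 2 to 5%, 53 at 5 to 10%, 22 at 10 to 40% and 24 at 40% or more. Between 36.1% and 44.6% there was no barcode, and the 24 above that gap reached 54.0%. No kept barcode of the library lacked globin: the lowest had 0.211%, and the median globin-low barcode 0.547%. How much of that is RNA released by other cells was not measured.

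**Figure D1:**
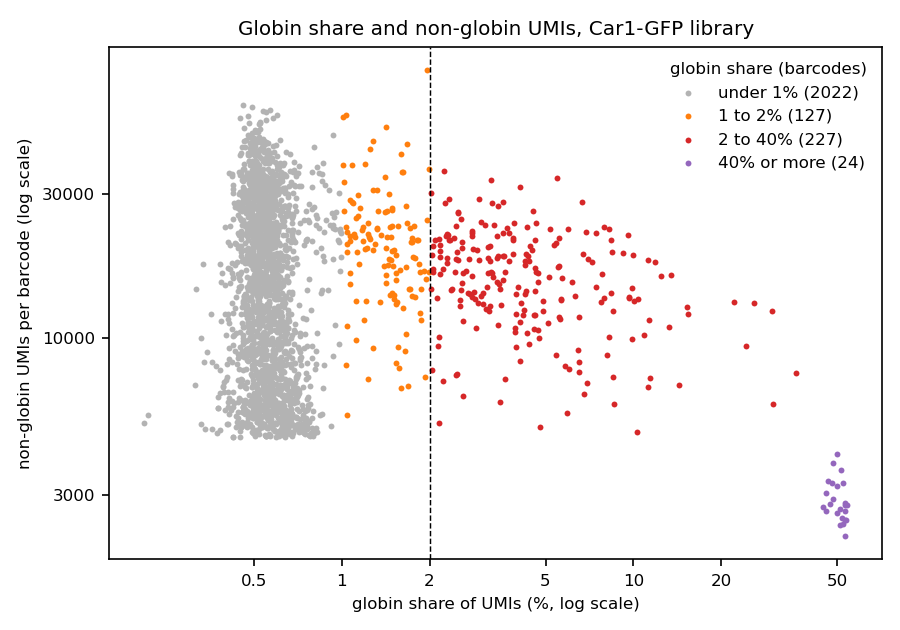
Each point is 1 of the 2400 kept Car1-GFP barcodes, with its globin share of all UMIs (x, log scale) and its UMIs outside the globins (y, log scale). The dashed line marks the 2% limit. The 24 barcodes at 44.6 to 54.0% globin stand apart and hold 2197 to 4095 non-globin UMIs each.

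Globin UMIs per barcode ran from 115 to 5197 in the globin-rich barcodes, with a median of 683, and from 11 to 444 in the globin-low ones, with a median of 82. The globin-rich barcodes, 10.5% of those kept, held 52.8% of all globin UMIs of the library. Beta globin transcripts were in the majority: Hba-a1 and Hba-a2 together made up 39.0% of their globin UMIs, against 34.2% in the globin-low and 57.5% in the globin-rich barcodes of the other library. The alpha genes are near-identical to each other, as are the beta genes, so values of single copies are uncertain and are not compared.

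Label markers and other cell types were checked first. Of the 4 markers given for these cells, Hbb-bs and Hba-a1 are part of the rule, and Alas2 and Car2 are not. Alas2 (chrX:150547417-150570622) stood at 187 CPM (interval 173 to 201) against 10.8, and Car2 (chr3:14886269-14900770) at 5335 against 2951. Ptprc, which encodes the CD45 of the sort gate and was named after its values were seen, had 17 UMIs (4.55 CPM) against 14.4 CPM in the globin-low barcodes. Summed levels of marker lists for other cells were of like or smaller size on the globin-rich side: 38.8 against 37.9 CPM for mast cells and basophils, 79.8 against 98.5 for megakaryocytes, 36.1 against 52.7 for monocytes and macrophages, 181 against 297 for dendritic cells, 4.02 against 6.26 for B cells and 40.7 against 84.1 for T, NK and innate lymphoid cells. In the globin-rich barcodes the number of list members at 0 was 3 of 12, 2 of 10, 3 of 12, 4 of 10, 6 of 10 and 7 of 10 in that order. The sums also hide members that differ in direction. The megakaryocyte list had 8 measured genes, 1 at least 2-fold higher and 5 lower by as much. The higher one, Gp9, held 115 of the list's 298 UMIs (30.8 against 9.83 CPM, log2 1.65, 1.33 to 1.95). The mast cell and basophil list had 6 measured genes, 1 higher and 2 lower. The higher one was Mcpt8 (4 UMIs, 1.17), and the lower ones Ms4a2 (1 UMI, -2.52) and Gzmb (6 UMIs, -2.14). Most of that list's 145 UMIs came from Il1rl1, named after its values were seen and within 2-fold. It had 73 UMIs at 2 to 5% globin, 26 at 5 to 10% and 7 at 10% or more (28.0, 32.4 and 21.4 CPM). Under 0.5% and at 0.5 to 1% it stood at 17.4 and 18.5 CPM, so the near-equal sums rest largely on this gene.

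The granulocyte list, at 221 against 250 CPM with 0 of 12 members at 0, rested largely on a single barcode. One globin-rich barcode with 5.68% globin and 16748 UMIs held 243 of the 354 S100a8 UMIs of the group, and the next highest held 3. It also held 435 of the group's 824 UMIs of the whole list, and without it the list summed to 104.6 CPM. Without it the neutrophil gene Retnlg stood at 3.23 instead of 16.9 CPM and Mmp8 at 0.807 instead of 4.02. It was the only globin-rich barcode with 0.1% or more of its UMIs in mast cell, megakaryocyte and granulocyte markers, a share that 36 globin-low barcodes reached. Leaving all of these out left 620 genes higher and 1614 lower in the comparison below, against 626 and 1659 with them.

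Of 10927 genes with a total of 20 UMIs or more, 626 (5.73%) were higher by 2-fold or more in the globin-rich barcodes and 1659 (15.2%) lower by as much, with a median log2 ratio of -0.20. For 578 of the higher and 1097 of the lower genes the counting interval lay on that side of equality. The split depends on the scaling: with TMM factors each ratio gains 0.13, and the counts become 779 and 1309, and UMIs per barcode, which subtract 0.25, give 416 and 2445. The ratios below are to be read relative to such shifts. The 2-fold mark is a size, not a test.

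Among genes with a mean level of at least 50 CPM, Alas2 and Slc4a1 had the highest ratios. Alas2 had a median of 2 UMIs in a globin-rich barcode and 0 in a globin-low one, and the highest globin-rich barcode had 17. Its log2 ratio was 4.12 (3.94 to 4.30), or 698 against 385 UMIs in all. Slc4a1 (chr11:102348820-102365281), the anion exchanger band 3 of the red cell membrane, stood at 179 against 11.1 CPM, a log2 ratio of 4.01 (3.83 to 4.19). Both genes therefore had more UMIs in 251 barcodes than in 2022.

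Next above that level limit came Trim10 (142 against 15.8 CPM, log2 3.17), a ubiquitin ligase gene of erythroid cells, and Acp5 (284 against 33.0, 3.11), which encodes tartrate-resistant acid phosphatase. Slc25a37, the mitochondrial iron importer mitoferrin 1, stood at 176 against 23.2 (2.92). The others reported here from the 15 highest were the glutathione transferase gene Mgst3 (872 against 122, 2.84), the sialyltransferase gene St3gal6 (2.54), Fam210b (2.35), Ift140 (2.33), the cathepsin E gene Ctse (749 against 151, 2.31), the cyclin D3 gene Ccnd3 (812 against 175, 2.21), the heme enzyme gene Uros (120 against 27.1, 2.15) and Hemgn (446 against 101, 2.14).

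The contrasts were also seen at equal total depth. The thinning kept the globins in, so globin-rich barcodes retained fewer non-globin UMIs than globin-low ones. With every barcode thinned to 4000 UMIs, which left out 0 of the 251 and 0 of the 2022, an Alas2 UMI was found in 46.6% of globin-rich and 4.45% of globin-low barcodes (79.3% and 16.8% before thinning). For Slc4a1 the thinned shares were 47.8% and 4.75%. As a guide to background, any UMI of the 12 granulocyte markers, which erythroid cells should lack, was found in 73.7% of globin-rich and 76.9% of globin-low barcodes before thinning.

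**Figure D2:**
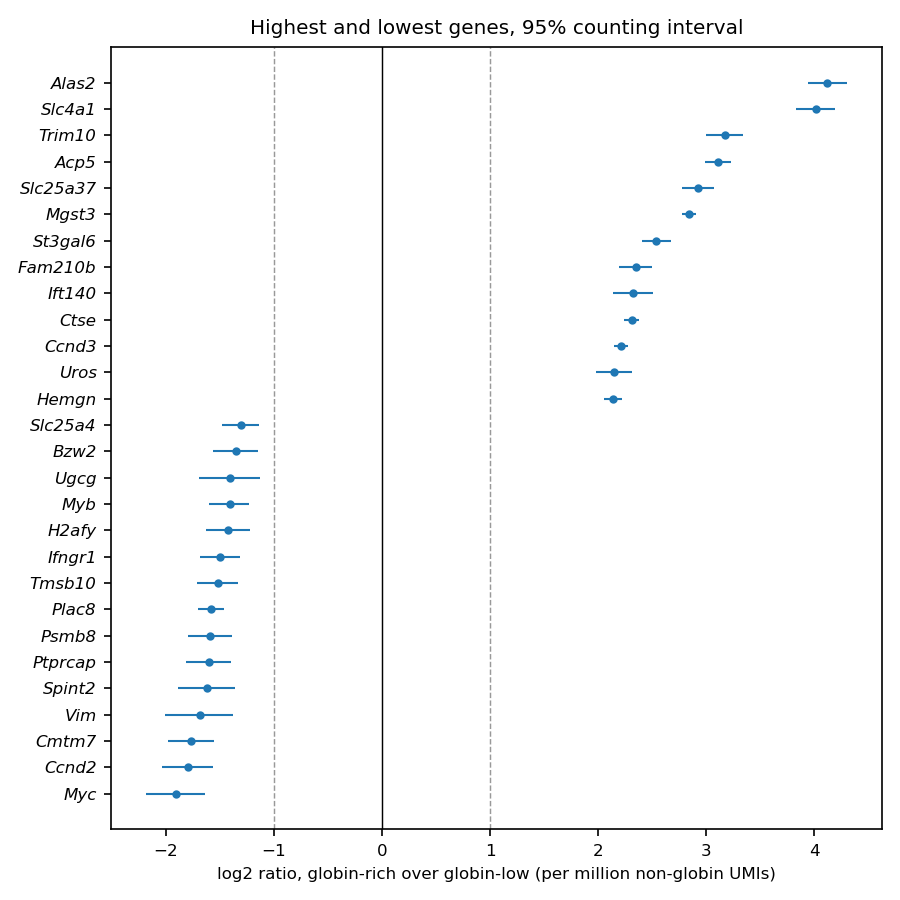
The log2 ratio of globin-rich over globin-low barcodes (x) for 13 of the 15 highest and the 15 lowest genes with a mean level of at least 50 CPM (y), with globin, mitochondrial, ribosomal protein and immunoglobulin genes left out. Points are ratios and bars 95% counting intervals, from Alas2 at 4.12 to Myc at -1.90.

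Under the same level limit of 50 CPM, Myc, the growth-promoting transcription factor, was lowest at 31.1 against 116 CPM (log2 -1.90, -2.18 to -1.64), with a median of 0 UMIs in a globin-rich and 2 in a globin-low barcode. The cyclin D2 gene Ccnd2 followed (42.6 against 148, -1.79), then Cmtm7 (-1.76), the intermediate filament gene Vim (-1.69), the protease inhibitor gene Spint2 (-1.62), the CD45-associated Ptprcap (-1.60) and the immunoproteasome gene Psmb8 (-1.59). Plac8 stood at 165 against 493 CPM (-1.58). The others were Tmsb10 (-1.52), the interferon gamma receptor gene Ifngr1 (-1.50), the histone variant gene H2afy (-1.42), the transcription factor gene Myb (67.2 against 179, -1.41), the glucosylceramide synthase gene Ugcg (-1.41), Bzw2 (-1.35) and the ADP/ATP carrier gene Slc25a4 (-1.31).

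Heme synthesis had the highest median among the lists with 10 or more measured genes, markers of cell types aside. Of its 12 members 11 were at least 2-fold higher and 1 lower, with a median log2 ratio of 1.52 beside -0.20 over all measured genes. After Alas2 the largest ratios were those of Uros (2.15), the mitochondrial transporter gene Abcb10 (126 against 33.9 CPM, 1.90) and Ppox, the enzyme that makes protoporphyrin (95.3 against 27.9, 1.77). The lower gene, named after its values were seen, was Alas1, the housekeeping isoform (13 UMIs, 3.48 against 9.08 CPM, -1.38). The lists were chosen with earlier results of these data known, so their counts describe them and are not evidence of a direction. Each list count in this comparison is to be read beside the 5.73% higher and 15.2% lower over all measured genes.

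Iron genes and heme-handling genes mostly lay within 2-fold. Of 16 genes of iron uptake and storage 2 were higher and 0 lower: Slc25a37 and the transferrin receptor gene Tfrc (173 against 71.6 CPM, 1.28, 1.15 to 1.40). The ferritin genes Fth1 (7878 against 4087, 0.95) and Ftl1 (3546 against 2091, 0.76) stayed under the mark, and the list's median of 0.24 becomes -0.01 per barcode. Of 9 heme-handling genes 2 were higher and 0 lower, the heme-binding Hebp1 (588 against 183, 1.68) and Eif2ak1, the heme-regulated kinase that slows translation (57.0 against 22.6, 1.33). Blvrb, a biliverdin reductase, stood at 2023 against 1021 (0.99), and the exporter gene Abcg2 at 0.94.

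Membrane genes differed widely among themselves. Of 14 skeleton genes 8 were higher and 0 lower (median 1.34), led by Slc4a1, Epb42, which encodes the band 3 partner protein 4.2 (79.3 against 8.41 CPM, 3.24), Tmod1, an actin-capping tropomodulin (22.5 against 2.46, 3.19) and Dmtn, dematin (49.5 against 7.93, 2.64). Of 16 measured surface and blood group genes 8 were higher and 0 lower (median 0.99). Among them were Cd36 (15.3 against 2.77, 2.46), Cd24a, the heat-stable antigen (3174 against 855, 1.89) and the Rh-associated Rhag (150 against 44.8, 1.75).

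The erythroid transcription factors mostly lay within 2-fold. Of 18 measured, 1 was higher and 0 lower (median 0.37): E2f2, a cell cycle factor of erythroid cells (60.2 against 9.19 CPM, 2.71). Gata1 stood at 228 against 175 (0.39, 0.28 to 0.49) and Klf1 at 515 against 325 (0.67, 0.60 to 0.74). Klf3 (0.82), Bcl11a, a repressor of embryonic globin (-0.79), and the cofactor gene Ldb1 (-0.71) also lay within 2-fold. The erythropoietin receptor gene Epor stood at 83.8 against 68.6 (0.29, 0.11 to 0.46). In its signalling list 1 of 10 was higher and 3 lower: the survival gene Bcl2l1 was higher, and the interleukin 3 receptor gene Il3ra (3 UMIs, -1.69, -4.00 to -0.10), Fam132b, which encodes the iron hormone erythroferrone (1 UMI, -1.26, -6.63 to 1.36), and Igf1r (14.5 against 30.8, -1.09) were lower.

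Of 15 measured progenitor genes 13 were at least 2-fold lower and 0 higher (median -1.58; 15.2% of all measured genes were lower). Kit (chr5:75574987-75656722), the stem cell factor receptor, had 50 UMIs, 13.4 against 46.9 CPM (-1.81, -2.24 to -1.40). Gata2 had 68 UMIs, 18.2 against 62.7 (-1.78, -2.15 to -1.44), and Lmo4 had 22 UMIs (5.89 against 22.4, -1.93). Thinned to 4000 UMIs, globins included, a Kit UMI was found in 4.78% of globin-rich and 19.8% of globin-low barcodes, and a Gata2 UMI in 8.37% and 28.0%. The lower non-globin depth of the globin-rich barcodes adds to this difference by an amount not measured.

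Car1, the gene of the reporter (chr3:14766214-14808365), was not higher with globin. It stood at 438 (417 to 460) against 633 CPM, a log2 ratio of -0.53 (-0.60 to -0.46), with medians of 6 and 8 UMIs per barcode. Its neighbour Car2 went the other way, with a median of 76 UMIs in a globin-rich and 31 in a globin-low barcode and a log2 ratio of 0.85 (0.83 to 0.88). Of the other 3 measured carbonic anhydrases, Car3 (8 UMIs, -1.53) and Car9 (7 UMIs, -1.13) were lower, and Car13 (16 UMIs, -0.33, named after its values were seen) lay within 2-fold.

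Genes of dividing cells stood higher as a group. Of 26 DNA replication genes 13 were higher and 0 lower (median 0.99), with the ribonucleotide reductase subunit gene Rrm2 at 878 against 207 CPM (2.09), the cyclin E2 gene Ccne2 at 107 against 24.4 (2.13), the histone mRNA-binding Slbp at 944 against 362 (1.38) and the thymidine kinase gene Tk1 at 325 against 125 (1.37). Of 25 mitosis genes 17 were higher and 0 lower (median 1.14), among them Kif23 (115 UMIs, 1.78), Nusap1 (241 against 73.5, 1.71), the cyclin B2 gene Ccnb2 (365 against 140, 1.38) and Prc1 (1.37). All 25 mitosis genes were above equality on the non-globin scale, and the median was 1.27 under TMM factors and 0.89 per barcode.

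The cell cycle exit list split. It holds D cyclins beside antiproliferative genes such as Btg2, so its counts do not measure exit. Of its 14 measured members 5 were higher and 4 lower (median 0.64). The antiproliferative Btg2 (83.3 against 10.5 CPM, 2.99) and Ccnd3 (2.21) were the highest, and Ccnd1 (8 UMIs, -1.87) and Ccnd2 (-1.79) the lowest, so cyclin D3 stood higher where cyclin D2 stood lower. In the nuclear lamina and chromatin list 6 of 21 were higher and 0 lower (median 0.35), with Lbr, the lamin B receptor (223 against 92.4, 1.27), Smc2, a condensin subunit (420 against 176, 1.26), and the lamin A gene Lmna (256 against 118, 1.12). Hdac5, the highest of the list at 1.81, rested on 19 UMIs.

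Ribosome biogenesis genes lay lower, as did most glycolysis genes, and most other metabolic lists lay near the background. Of 24 ribosome biogenesis genes 7 were lower and 0 higher, with all 24 below equality and a median of -0.93. The lowest were Rrp12 (13 UMIs, -1.81), Utp20 (14 UMIs, -1.69), Polr1b, a subunit of RNA polymerase I (22 UMIs, -1.24), and Rrp9 (27.0 against 60.1 CPM, -1.15). Of 82 ribosomal protein genes 1 was lower and 0 higher, and these genes took 32.3% of non-globin UMIs against 34.4%. Of 22 folate and purine genes 4 were lower and 0 higher (median -0.31; 15.2% of all measured genes were lower): Impdh1 (-1.45), Shmt1 (-1.36), Mtap (-1.32) and Cad (-1.17). Of 19 glycolysis genes 2 were higher and 2 lower by 2-fold, and only 4 lay above equality (median -0.78). The 2 higher were the glucose transporter gene Slc2a4 (23 UMIs, 3.32) and Bpgm, the enzyme that makes 2,3-bisphosphoglycerate (95.1 against 22.0 CPM, 2.11), and the lower ones Pfkp (10 UMIs, -1.17) and Hk2 (5 UMIs, -1.12, -2.77 to 0.15).

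Listed genes of the citric acid cycle, respiratory chain and mitochondrial genome showed no 2-fold difference on either side. In the citric acid cycle (18 genes, median -0.13), the nuclear-encoded respiratory chain (21 genes, 0.18) and the mitochondrial genome (13 genes, -0.03), 0 genes were higher and 0 lower. Suclg2 (-0.75), Sdhd (-0.50), Cycs, cytochrome c (-0.40), and mt-Co1 (0.37) were among the larger departures, none of them 2-fold. Under TMM factors the citric acid cycle median is -0.00 and that of the mitochondrial genome 0.10, and per barcode that of the respiratory chain is -0.07.

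Genes for clearing organelles and proteins were mixed. Of 16 ubiquitin enzymes of red cell maturation 8 were higher and 0 lower, with a summed level of 3705 against 2614 CPM. Trim10, Ube2l6 (250 against 82.8 CPM, 1.59), Ubac1 (272 against 97.5, 1.48) and Ube2o, which removes ribosomes in reticulocytes (40 UMIs, 1.21), were the highest. Of 19 autophagy and mitochondrial clearance genes 2 were higher and 0 lower (median 0.29), Wipi1 (48.7 against 15.8, 1.62) and Atg4a (32.1 against 11.1, 1.53). Of 17 antioxidant genes 2 were higher and 0 lower (median -0.03, or 0.10 with TMM), Prdx2, the abundant peroxiredoxin of red cells (3300 against 1333, 1.31), and Gclc (75.8 against 33.5, 1.18).

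In the Bcl2 family 3 of 11 were higher and 2 lower (median -0.23). Bcl2l1, which encodes the Bcl-xL that keeps maturing red cells alive, stood at 10.4 against 3.88 CPM (39 UMIs, 1.43, 0.88 to 1.95), Bik at 1.43 (18 UMIs) and Bcl2l11 (named after its values were seen) at 1.11, while Bnip3 (19 UMIs, -1.43) and Bcl2 (12 UMIs, -1.24) were lower. Of 14 amino acid supply genes 2 were higher and 1 lower (median 0.21, and -0.04 per barcode): the transporter genes Slc43a1 (1.41) and Slc38a5 (1.05), and the serine synthesis gene Phgdh (67.5 against 159, -1.23). In the remaining lists, 0 of 19 heat shock and immediate early genes were higher and 2 lower, Egr1 (-1.37) and Hspa1a (-1.04), whose reads can be split with the near-identical Hspa1b. Of 20 cholesterol synthesis genes 0 were higher and 1 was lower, Lss (7 UMIs, -1.03). Of 15 translation repressor and RNA stability genes 1 was higher, Eif2ak1, and 3 were lower, Cnot6l (-1.35), Zfp36l2 (-1.17) and Larp1 (-1.15). Over all measured genes 5.73% were higher and 15.2% lower, so the counts of these small lists do not set them apart. The theta globin gene Hbq1b, the 1 measured gene of the minor and embryonic globins, stood at 24.9 against 1.59 CPM (93 UMIs, 3.97, 3.48 to 4.47).

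**Figure D3:**
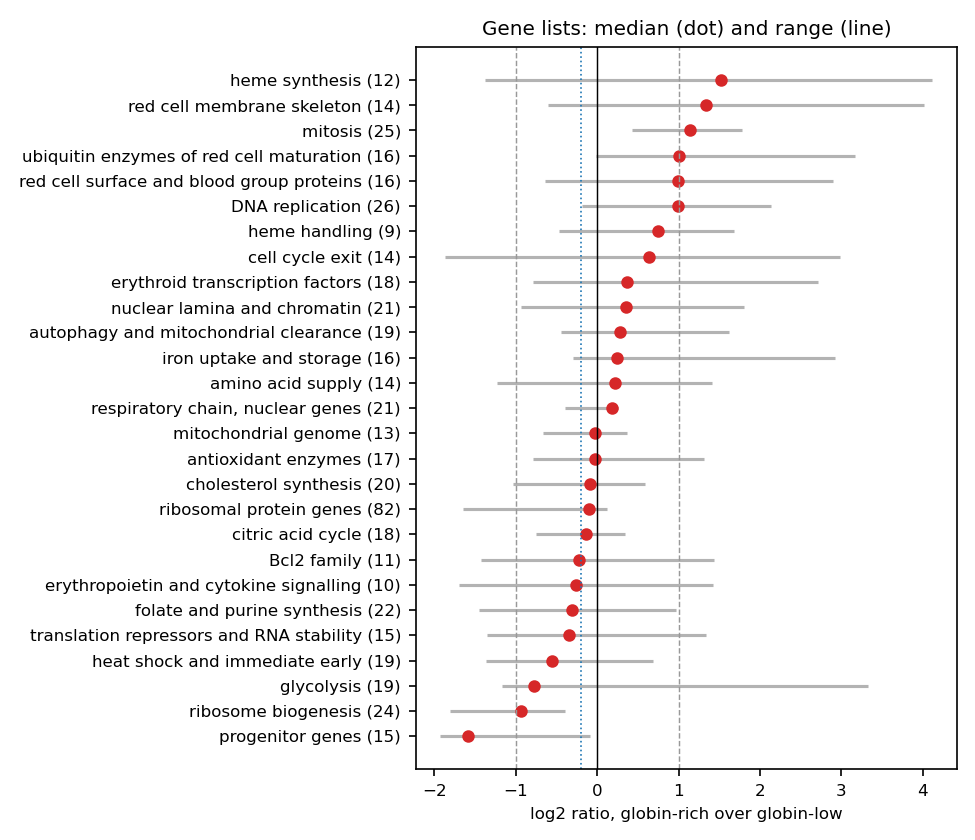
For each gene list with at least 8 measured genes, cell type markers aside (y; number of measured genes in brackets) the dot gives the median log2 ratio of globin-rich over globin-low barcodes (x) and the line the range over its genes. The dotted line is the median of all measured genes (-0.20) and the dashed lines mark 2-fold. Among these, heme synthesis is highest at 1.52 and the progenitor genes lowest at -1.58.

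Barcodes at 1 to 2% globin were much closer to the globin-rich ones. Against these 127, 126 of 8391 genes (1.5%) reached 2-fold on the higher side and 118 (1.41%) on the lower side. Of the 12 heme synthesis genes 1 was higher there (median 0.39), of 13 skeleton genes 2 (0.37), of 25 mitosis genes 0 (0.39), and of 12 progenitor genes 1 was higher and 0 lower (median -0.01). Alas2 still differed by 2.62 (187 against 30.5 CPM).

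Levels were next followed over the globin share in bins of under 0.5%, 0.5 to 1%, 1 to 2%, 2 to 5%, 5 to 10%, 10 to 40%, and 40% or more. Alas2 was higher in each bin than in the one before: 10.2, 10.9, 30.5, 92.1, 248, 632 and 1378 CPM. Slc4a1 ran 9.81, 11.6, 40.6, 134, 251 and 399 up to the bin of 10 to 40%, and stood at 201 (14 UMIs) in the last. Epb42 likewise ran 6.12, 9.23, 40.6, 57.2, 122 and 186, and stood at 14.3 in the last, from 1 UMI. The first 6 bins thus kept 1 order for both membrane genes, and the last broke it.

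Progenitor genes were low in a different way. Kit stood at 52.5 and 44.8 CPM under 1% globin, at 10.2 from 1 to 2%, and at 11.5, 16.2 and 15.5 in the bins up to 40%, so nearly all of the difference lay below 2% globin. Gata2 ran 59.5, 63.9, 18.5, 16.5, 24.9 and 3.88, the last from 1 UMI. Car1 stood at 643 and 629 under 1%, 407 from 1 to 2%, and 428, 457 and 415 above. Car2 was 2958 and 2949 under 1%, 4845 from 1 to 2%, and 5219, 5728 and 5931 above.

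**Figure D4:**
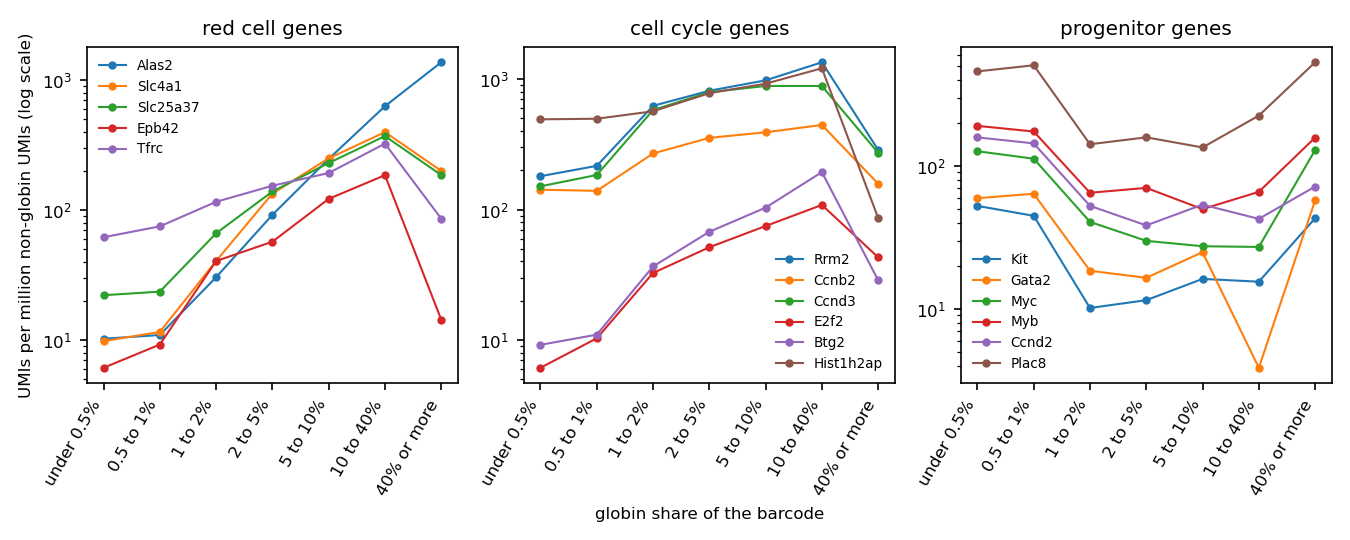
Levels in UMIs CPM non-globin UMIs (y, log scale) of 17 genes in 3 panels, by globin share of the barcode (x, 7 bins), summed over the barcodes of each bin. Alas2 climbs from 10.2 to 1378 CPM; the other genes of the left and middle panels turn down in the last bin, where the progenitor genes of the right panel turn up.

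The 24 barcodes at 40% globin or more were examined on their own, a split made after the data were seen. They were small: a median of 5655 UMIs, of which 2774.5 lay outside the globins, and 1184 genes, against medians of 17195 UMIs and 3442 genes at 2 to 5% globin. Thinned to 1000 non-globin UMIs, the median number of genes per barcode was 582 in the 24 and 574 at 2 to 5%. The smallest of them, at 4700 UMIs, was also the smallest kept barcode of the library, and any smaller ones were not analysed here. The sum over the 24 holds 69693 non-globin UMIs, and 3 UMIs correspond to 43.0 CPM.

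Against the 205 barcodes at 2 to 10% globin, 972 of 7237 genes (13.4%) reached 2-fold on the higher side in the 24 and 582 (8.04%) on the lower, but the counting interval lay on that side of equality for 245 and 132. Against the globin-low barcodes, 1179 of 10828 (10.9%) were higher and 525 (4.85%) lower, with the interval on that side of equality for only 173 and 57. Among genes with a mean level of at least 100 CPM over these 2 groups the highest was Bpgm (chr6:34476356-34505136), with at least 1 UMI in 24 of 24 barcodes (median 5.5, highest 15). It stood at 2167 CPM against 52.0 at 2 to 10%, 41.7-fold, or 5.38 (5.06 to 5.70) on the log2 scale. In the globin-low barcodes, whose median depth was 14971 UMIs, 30.4% had a Bpgm UMI. Without the 24, the Bpgm ratio of globin-rich over globin-low barcodes was 1.34 instead of 2.11, the largest such shift among the genes named here apart from Ltf (1 UMI).

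Above the same level limit, Fam46c (287 against 9.10 CPM, 4.98) and Rsad2 (258 against 11.7, 4.46) came next, each on 20 UMIs or fewer. Alas2 had a UMI in 24 of 24 barcodes (1378 against 129, 3.42). The ubiquitin ligase gene Mkrn1 stood at 1664 against 257 in 24 of 24 barcodes (2.69), the ubiquitin-conjugating Ube2b at 631 against 131 (2.27), the catalase gene Cat at 172 against 30.5 (12 UMIs, 2.50) and Bnip3l, which marks mitochondria for removal in reticulocytes, at 947 against 252 (66 UMIs in 22 of 24, 1.91). Bcl2l1, taken from the fixed set and below that level limit, stood at 115 against 8.22 (8 UMIs, 3.80). Among the 10 lowest above that limit were the replication histone gene Hist1h2ap (86.1 against 815, -3.24), Acp5 (3 UMIs, 43.0 against 284, -2.72, -5.00 to -1.17), Ermap (2 UMIs, -2.64), the flap endonuclease gene Fen1 (4 UMIs, -2.25) and Ctse (13 UMIs, 187 against 736, -1.98).

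By list, 10 of 25 mitosis genes and 12 of 26 DNA replication genes were lower in the 24 barcodes than at 2 to 10% globin and 0 higher. In heme synthesis 7 of 11 measured genes were lower and 1, Alas2, was higher (median -1.13), with Uros at 1 UMI (-3.06). Of 15 ubiquitin enzymes 6 were higher and 2 lower. Of 17 autophagy and mitochondrial clearance genes 4 were higher, Bnip3l among them, and 3 lower, each of the 3 on 1 UMI (median 0.12), and of 15 glycolysis genes 5 were higher and 0 lower. Over all measured genes of this comparison 13.4% were higher and 8.04% lower.

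Progenitor genes also stood higher in these 24 barcodes, at 574 CPM in sum (40 UMIs) against 243 at 2 to 10% and 656 in the globin-low barcodes. Of 10 measured, 6 were at least 2-fold higher than at 2 to 10% and 0 lower, where 13.4% of all measured genes were higher. Among the 6 were Myc (9 UMIs, 129 CPM), Myb (11 UMIs, 158), Gata2 (4 UMIs, 57.4) and Kit (3 UMIs, 43.0). These counts are small: Kit lies at the floor of 3 UMIs, and 8 of the 18 list members had 0 UMIs in the 24. Car1 (660) and Car2 (2970), too, lay close to the globin-low 633 and 2951. Summed dendritic cell markers stood at 330 (23 UMIs, 7 of 10 members at 0) against 179 CPM at 2 to 10%. Those of T, NK and innate lymphoid cells stood at 115 against 37.9, with all 8 UMIs from Nkg7. Mast cell (4 UMIs), megakaryocyte (7 UMIs) and monocyte (6 UMIs) sums were also higher. Granulocyte (201 against 229) and B cell sums (0 against 4.40) were lower. Whether RNA released by the many globin-low cells adds to these small barcodes was not tested.

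**Figure D5:**
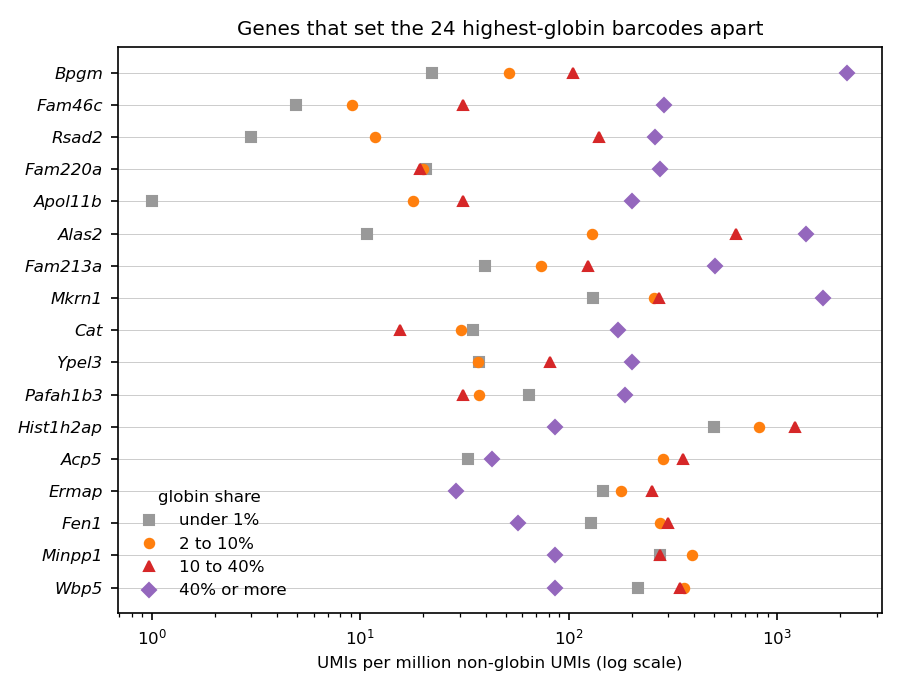
Levels (x, UMIs CPM non-globin UMIs, log scale) of 17 genes (y) in barcodes under 1%, at 2 to 10%, at 10 to 40% and at 40% or more globin. The upper 11 are among the highest and the lower 6 are the lowest ratios of the last group over 2 to 10% among genes with a mean level of at least 100 CPM, chosen after the data were seen; Bpgm stands at 2167 in the last group and 52.0 at 2 to 10%.

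The rule was then applied to the library it did not use. Of 6439 kept marrow barcodes 78 (1.21%) had 2% globin or more, with a median of 1394 UMIs against 15561 in the Car1-GFP group. Their sum held 113581 non-globin UMIs, where 3 UMIs are 26.4 CPM. In the globin-rich Car1-GFP barcodes 1150 of 7513 measured genes (15.3%) reached 2-fold on the higher side and 1827 (24.3%) on the lower (median -0.17), and for 565 and 1084 the counting interval lay on that side of equality. TMM factors add 0.51 to each ratio and turn the split to 1987 higher and 1100 lower. Gate, reporter, mice and depth differ together between these groups and cannot be told apart.

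Several core genes lay at like levels in the globin-rich barcodes of both libraries. Alas2 stood at 187 against 176 CPM (20 marrow UMIs; 0.09, -0.55 to 0.81), Car1 at 438 against 423 (0.05, -0.36 to 0.50), Gata1 at 228 against 202 (0.17) and Epor at 83.8 against 88.0 (-0.07). Klf1 was higher, at 515 against 299 (0.78, 0.30 to 1.32), though under 2-fold on this scale. TMM factors add 0.51 to each of these ratios and turn that of Epor positive. The Alas2 ratio moved between -0.03 and 1.83 over the other settings tried. Kit had 50 UMIs against 0, where the floor of 26.4 CPM lies above the Car1-GFP value, so no ratio was formed.

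Car2 was higher in the Car1-GFP group, at 5335 against 2131 (1.32, 1.14 to 1.51). Lower were Tfrc, at 173 against 810 (-2.23, -2.54 to -1.89), and Slc4a1, at 179 against 757 (-2.08, -2.41 to -1.74). The iron list as a whole had 2 of 15 genes higher and 5 lower (median -0.17, or 0.34 with TMM). In the skeleton list 8 of 13 genes were lower and 1 higher (median -1.50, or -0.99 with TMM). Of 18 citric acid cycle genes 13 were higher and 1 lower (1.30), of 21 respiratory chain genes 13 and 0 (1.28) and of 22 ribosome biogenesis genes 11 and 1 (1.30). In the mitochondrial genome, 1 of 13 was higher and 3 were lower (0.07). Over all measured genes of this comparison 15.3% were higher and 24.3% lower.

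The lowest genes of this comparison were neutrophil and myeloid genes. Camp stood at 10.4 against 2791 CPM (-8.06), followed by Ngp (-7.76), Wfdc21 (-7.50), S100a9 (-6.96), S100a8 (94.8 against 10926, -6.85), Lcn2 (-6.48), Tyrobp (-5.93) and Lyz2 (-5.83). Granulocyte markers summed to 24361 CPM in the 78 marrow barcodes, each of which had between 4 and 186 of their UMIs, and to 221 in the Car1-GFP group. Leaving out the 3 marrow barcodes with 5% or more myeloid markers gave 1114 higher and 1823 lower genes, with Tfrc at -2.28, Slc4a1 at -2.12 and Car2 at 1.30. The 75 barcodes left still hold granulocyte markers, and the part of these in the other ratios was not tested further. The 8 highest genes rested on 1 to 4 marrow UMIs: Mdh1 (4.51, 2.03 to 9.82), Cd81 (4.37), Apoe (4.05), Rfc5 (4.01), Clpp (3.84), Ldha (3.78), Ddx39 (3.78) and Farsa (3.77). Xist, named after its values were seen, stood at 295 against 1558 CPM (-2.40), and the Y-linked Ddx3y had 122 UMIs (32.7 CPM) against 0, where the marrow floor is 26.4 CPM. The sex of the mice is not in the labels, and its part in these ratios was not tested.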

How the data were processed

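The deposited files are 10x Genomics matrices of UMI counts per gene and barcode, 27998 genes, made from single-cell libraries (3' chemistry, version 2 per the labels' protocols). Per the submitters' processing notes, the authors used Cell Ranger 2.1 and Seurat 2 on mm10. All values were checked to be whole counts. No deposited cell annotation was used. Groups follow the sample labels, with 1 library each.

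Barcodes with 10% or more mt- UMIs (122 of the Car1-GFP library) were left out. UMIs were summed per group and divided by non-globin UMIs. Ratios carry 95% exact binomial intervals and levels exact Poisson intervals, for counting error only. Genes needed a total of 20 UMIs, and 2-fold was the size used. Members and gene lists were chosen with earlier results of these data known.

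Named genes were the 15 highest and 15 lowest ratios at a mean level of 50 CPM or more, up to 4 measured genes per list by absolute ratio, and a fixed set (Car1, Car2, Alas2, Kit, Gata1, Gata2, Klf1, Tfrc, Epor, Slc4a1, Myc, Bcl2l1). Against the marrow they were the 8 highest and 8 lowest with at least 50 UMIs. For barcodes at 40% globin or more, a split made after seeing the data, names were taken mainly from the 20 highest and 10 lowest at a mean level of 100 CPM or more. The heme exporter gene Flvcr1 was not analysed here, and some genes chosen by this rule are left unreported.

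Scripts were tested on simulated data. Tools were Python 3.11.15, numpy 2.4.6, scipy 1.17.1, pandas 2.3.3, scanpy 1.11.5 (Scrublet, seed 1) and edgeR 4.0.16 (TMM factors).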

Additional observations from a re-analysis of the deposited data

How the results depend on the processing

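No paired analysis was possible because each group is 1 library and no result comes from a test. Between globin-rich and globin-low barcodes, the 626 higher genes became 416 with UMIs per barcode and 1222 with no minimum above 1 UMI; the 1659 lower genes, between 1309 and 2445, stayed within 1.5 times of that count under each setting run. Against the marrow, the 1150 higher genes became 1987 with TMM factors and 348 with barcodes thinned to 500 UMIs. The 1827 lower genes became 1100 with TMM factors, 993 at 5% globin or more on both sides, 152 after thinning, 1091 with at least 50 UMIs and 3218 with at least 1 UMI. Thinning and the UMI minimum change how many genes are measured; the cause of the other changes was not tested. Among 2802 values of single genes under the alternatives, 25 changed sign, and all but 5 of these were of genes within 2-fold as reported. The 5 were of genes at least 2-fold apart as reported: Fam132b (0.46) and Hdac5 (-0.71) at 5% globin or more, Fn1 (0.34) and Ms4a6c (0.34) against barcodes under 0.5% globin, and Hk2 (0.15) after thinning to 4000 UMIs. Each of the 5 has few UMIs in the globin-rich barcodes. The settings without barcodes at 40% globin or more (632 higher, 1699 lower) and without barcodes shared by the libraries (623 and 1665) were chosen after seeing the data.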
